A study of Mus musculus with 8 samples.

Results

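Fos, Fosb, Fosl1, Fosl2, Jun, Junb, Jund, Egr1, Egr2 and Ier2 are immediate early genes, which a cell can switch on within minutes of a stimulus without making new protein first. These 10 genes were taken by their symbols from both deposited tables, and all 10 were listed in each, among the 19382 genes that the tables list between them. RNA was sequenced from 8 libraries of C57BL/6 mouse cells, in 4 groups of 2. Activated hepatic stellate cells (AHSC), the matrix-producing cells of the injured liver, came from liver and were purified on a density gradient. They were left as control (untreated in the labels, vehicle in the study text) or exposed to 0.03 µM auranofin, an oral gold compound used against arthritis, for 12 h. Bone marrow-derived macrophages (BMDM) were grown with M-CSF from bone marrow of male mice aged 8 weeks, and every BMDM library received LPS at 100 ng/ml and ATP at 1 mM, the controls included. The BMDM auranofin group also received auranofin, at 0.1 µM by the labels and 0.3 µM by the study text. The study text gives 1 h for the exposure to vehicle or auranofin. In its inflammasome assays the study primed BMDM with LPS for 4 h before ATP and auranofin were added. How long LPS acted before RNA sequencing is not stated in the study text. No source used here says that the 2 libraries of a group came from separate animals or cultures, so the p-values measure only the spread between these libraries.

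FOS and JUN proteins pair through leucine zippers to form AP-1, the transcription factor that reads the site TGACTCA in DNA. A FOS protein must take a partner such as a JUN protein, whereas JUN proteins can also pair among themselves. Their genes are switched on by MAP kinases, which act through serum response factor and its ETS partners on Fos, Egr1 and Ier2 and through already present JUN and ATF2 on Jun. In macrophages, LPS acts through TLR4 and ATP through P2X7 on the same kinases. In stellate cells, AP-1 takes part in the activation that follows injury.

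The DNA before the start of transcription was taken from RefSeq (GRCm38.p6), where 7 of the 10 genes had an entry. Fosl1, Egr1 and Ier2 had none. The windows of 3 genes are shown because Jun and Fos were among those that differed between the BMDM libraries and because Junb gave most of the JUN transcripts there. Each window holds the 250 bases before the start, 5′ to 3′ on the strand of the gene, and capitals mark matches to the motifs searched.
Jun, chr4:95052223-95052472, minus strand: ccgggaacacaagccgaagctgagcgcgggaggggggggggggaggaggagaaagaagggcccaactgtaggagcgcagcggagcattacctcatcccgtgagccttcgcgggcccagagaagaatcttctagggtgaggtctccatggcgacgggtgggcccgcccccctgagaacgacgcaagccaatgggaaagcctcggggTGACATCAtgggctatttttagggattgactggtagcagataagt
Fos, chr12:85473640-85473889, plus strand: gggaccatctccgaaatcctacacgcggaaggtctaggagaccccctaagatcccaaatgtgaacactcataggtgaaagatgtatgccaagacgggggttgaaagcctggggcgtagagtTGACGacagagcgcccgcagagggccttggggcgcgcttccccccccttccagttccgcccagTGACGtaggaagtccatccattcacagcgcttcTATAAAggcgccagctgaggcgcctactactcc
Junb, chr8:84978749-84978998, minus strand: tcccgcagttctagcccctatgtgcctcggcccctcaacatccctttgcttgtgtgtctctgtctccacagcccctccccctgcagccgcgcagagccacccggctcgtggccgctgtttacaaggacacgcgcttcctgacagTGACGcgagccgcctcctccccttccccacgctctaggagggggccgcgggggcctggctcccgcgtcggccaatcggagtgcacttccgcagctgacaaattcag
The 8 motifs, searched on both strands, were the AP-1 site TGACTCA, the AP-1-like site TGACATCA, the CRE TGACGTCA and its first part TGACG, the EGR site GCGGGGGCG, the antioxidant response element TGACNNNGC, the TATA box TATAAA and the CArG box, which serum response factor reads. A TGACG match can lie inside a TGACGTCA or a TGACNNNGC match. The Jun window held TGACATCA at 45 bases before the start, a motif found in 2.93% of the 32851 RefSeq windows of the same length. The Fos window held TGACG at 129 and 66 bases and TATAAA at 33 bases before the start, motifs of 17.8% and 12.4% of all windows. In the Junb window TGACG stood at 106 bases before the start. Of the genes not printed, Fosb held TGACG and GCGGGGGCG at 60 and 50 bases and Fosl2 held GCGGGGGCG at 79 bases before the start (2.57% of all windows), and none of the 8 motifs was in the Jund window. Of the 5 Egr2 windows, which overlap in part, 4 held a CArG box, which 1.47% of all windows hold. In the 3 that overlap it was the same box. These 3 windows also shared TGACG on both strands and TGACNNNGC, which 10.2% of all windows hold. A match describes these letters only, and no binding was measured.

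Libraries held between 27500000 and 39400000 fragments, estimated from the smallest steps between low values. Levels are in FPKM, the fragments of a gene scaled to the length of its transcript and to the size of the library, so that different genes can be compared. Fold changes and p-values are from limma on log2(FPKM + 1), a scale that understates the change of low genes, and adjusted p-values are by Benjamini-Hochberg over all genes tested. BMDM auranofin replicate 1 stood apart from the other BMDM libraries. On the log2(FPKM + 1) scale it differed at least 2-fold from each of the other 3 in between 742 and 751 of 9232 genes tested, where the other pairs of BMDM libraries differed in 24 to 38 genes. Every BMDM result is therefore given library by library or with and without it. No AHSC library stood apart in this way, with 37 to 58 genes for each pair. Markers were also read. In the AHSC libraries, 13 stellate cell and fibroblast markers summed to 4411 and 4545 FPKM in the controls and 3837 and 3937 FPKM with auranofin, led by Col1a1 and Acta2, while Lrat, which stores retinoid in quiescent stellate cells, had 1.70 to 2.85 FPKM. The same libraries held 11 macrophage markers at 7432 to 7737 FPKM and 6 Kupffer cell markers at 2386 to 2599 FPKM in sum. A further 7 sinusoidal endothelial markers summed to 182 to 194 FPKM. These cultures thus held macrophage and endothelial transcripts beside those of stellate cells. From bulk RNA, which cells carried a transcript cannot be told, nor can fewer cells of a type be told apart from less RNA per cell. In BMDM the macrophage markers summed to 8831 to 9790 FPKM and the stellate and fibroblast markers to 7.67 to 14.1 FPKM. Neutrophil markers in BMDM summed to 158 and 167 FPKM in the controls and to 220 and 222 FPKM with auranofin. S100a8 and S100a9 made up nearly all of these sums, while Ly6g and Mpo stayed under 1 FPKM in each BMDM library. The part of these markers in the results was not tested.

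Both cell types had all of the FOS and JUN genes, at different levels. In AHSC controls Junb and Jun led, at 47.0 ± 0.102 and 46.6 ± 1.71 FPKM (SD, n = 2), and these neighbours were not separated beyond their spread. They were followed by Jund, the JUN gene that is least dependent on a stimulus, at 29.9 ± 0.143 FPKM and by Fosl2, which encodes FRA-2, at 25.0 ± 0.363 FPKM (SD, n = 2). Egr1, Egr2 and Ier2 came next, at 19.1, 13.2 and 12.6 FPKM. At the low end were Fos at 6.61 ± 0.598 FPKM, Fosl1, which encodes FRA-1, at 3.78 ± 0.220 FPKM and Fosb at 0.317 ± 0.0488 FPKM (SD, n = 2). From Jun downwards, no neighbours in this order overlapped in the control libraries.

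In BMDM controls with LPS and ATP, Junb stood at 406 ± 4.99 FPKM (SD, n = 2) and ranked 168 of 17408 genes by control mean. Ier2, a small nuclear regulator of transcription, followed at 35.9 ± 3.95 FPKM and Jund at 33.2 ± 1.92 FPKM (SD, n = 2), and the libraries of these neighbours overlapped. Jun had 21.7 ± 0.0880 FPKM, Fos 18.6 ± 2.07 FPKM, Fosl2 11.1 ± 0.766 FPKM and Egr1 9.29 ± 1.40 FPKM (SD, n = 2). Egr2, a zinc finger factor of the EGR family, had 1.43 ± 0.148 FPKM, and Fosl1 and Fosb were lowest at 0.676 and 0.536 FPKM. At these low levels about 35 and 37 fragments of Fosl1 and 55 and 61 of Fosb were counted in the control libraries. The tables were normalized separately and differ in stimulus and time, so the cell types are set side by side without a test.

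**Figure D1:**
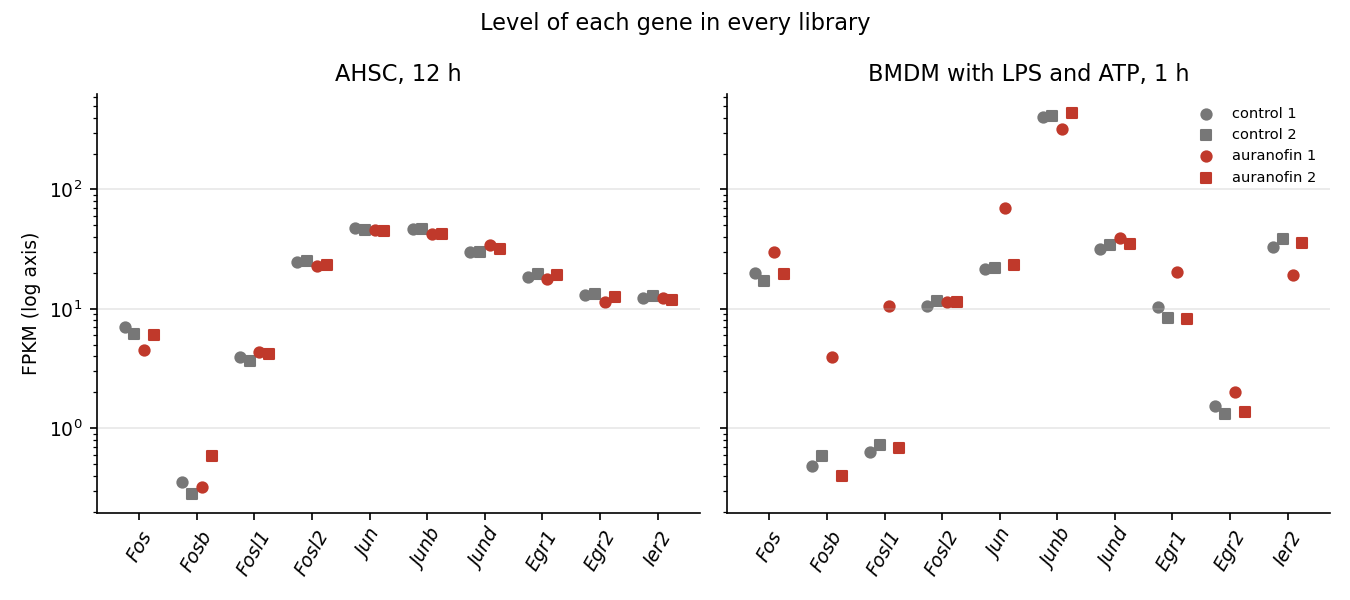
FPKM of each of the 10 genes (log axis) in the 4 AHSC libraries (left) and the 4 BMDM libraries (right), with 1 point for each library, controls grey and auranofin red, replicate 1 round and replicate 2 square. AHSC points of a gene lie close together, while in BMDM the red round points of Fosb (3.92 FPKM), Fosl1 (10.5 FPKM) and Jun (70.3 FPKM) stand above the other 3.

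In AHSC, no change of the AP-1 and EGR genes was called after 12 h of auranofin, though 2 libraries a group could miss one. None of the 9 genes tested passed an adjusted p under 0.05, where 283 of 12149 genes did (2.33%), and none passed 1.5-fold with an unadjusted p under 0.05, where 70 genes did (0.576%). Their log2 fold changes ran from -0.29 for Fos to 0.14 for Fosl1, with a median of -0.05 beside 0.0049 for all genes tested. Fosb had a mean under 1 FPKM and was not tested.

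Among the JUN genes of AHSC, Junb had 47.1 and 46.9 FPKM in the controls and 42.2 and 42.0 FPKM with auranofin. Both auranofin libraries lay below both controls, and the gap was wider than either group. The log2 fold change of Junb was -0.15 (standard error 0.03), with an unadjusted p of 0.0042 and an adjusted p of 0.0884 from limma. Jund, which restrains growth in many cells, had 30.0 and 29.8 FPKM in the controls and 34.4 and 31.7 FPKM with auranofin. Here the auranofin libraries lay above the controls, with a difference of 0.14 on the log2 scale (standard error 0.05, adjusted p = 0.219 from limma). Jun, the first JUN gene to be described, had 47.8 and 45.4 FPKM against 45.7 and 44.6 FPKM, and the groups overlapped. Of the 13 stellate cell and fibroblast markers, 10 had a log2 fold change below 0 and 3 (Pdgfra, Lrat and Reln) above it, and 1, Acta2, passed an adjusted p under 0.05, with a log2 fold change of -0.38 (adjusted p = 0.0072 from limma). Over all genes tested, 5803 of 12149 were below 0. Sinusoidal endothelial markers were lower in 3 and higher in 4 of 7. Of them Stab2 (log2 fold change -0.37, adjusted p = 0.0169 from limma) and Clec4g (-0.44, adjusted p = 0.0130 from limma) passed. Of the 5 Kupffer cell markers tested, 3 were higher and 2 lower, and Clec4f passed (0.27, adjusted p = 0.0395 from limma). None of the 11 macrophage markers passed. The part of these markers in the value of Junb was not tested.

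Fosl2 was the FOS gene with the most transcripts in AHSC. It had 24.8 and 25.3 FPKM in the controls and 22.8 and 23.2 FPKM with auranofin, without overlap, a difference of -0.11 on the log2 scale (standard error 0.04, unadjusted p = 0.0251 and adjusted p = 0.208 from limma). Fos had 7.03 and 6.19 FPKM against 4.52 and 6.04 FPKM, and the lowest library was auranofin replicate 1. The fitted difference of Fos, -0.29 on the log2 scale (adjusted p = 0.308 from limma, standard error 0.12), was -0.11 without that library and -0.46 without auranofin replicate 2. Fosl1 went the other way, with 3.94 and 3.63 FPKM in the controls and 4.39 and 4.17 FPKM with auranofin (adjusted p = 0.319 from limma). Fosb, the least abundant, had 0.352 and 0.283 FPKM against 0.321 and 0.587 FPKM, from about 42, 35, 36 and 87 fragments. The library with the highest Fosb, auranofin replicate 2, was also the one with the highest sum of the 4 neutrophil markers (68.5 FPKM, where the other AHSC libraries had 6.18 to 17.6 FPKM). That sum held S100a9 at 44.7 FPKM and S100a8 at 23.6 FPKM, with Ly6g at 0.165 FPKM and Mpo at 0 FPKM. The part of these markers in the value of Fosb was not tested.

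The EGR genes encode zinc finger factors that bind GC-rich sites. In AHSC, Egr1 had 18.7 and 19.5 FPKM in the controls and 17.6 and 19.1 FPKM with auranofin, and the groups overlapped. Egr2 had 13.0 and 13.3 FPKM against 11.4 and 12.7 FPKM, and Ier2 12.43 and 12.9 FPKM against 12.42 and 11.9 FPKM, in both cases without overlap. Of the 9 genes tested, 3 (Fosl2, Junb and Jund) had an unadjusted p under 0.05, as had 17.8% of all genes tested. In 7 of the 9, both auranofin libraries lay beyond both controls, 5 lower and 2 higher. This was so for 50.1% of all genes. With 2 libraries against 2, the smallest two-sided p that exact permutation allows is 0.333.

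**Figure D2:**
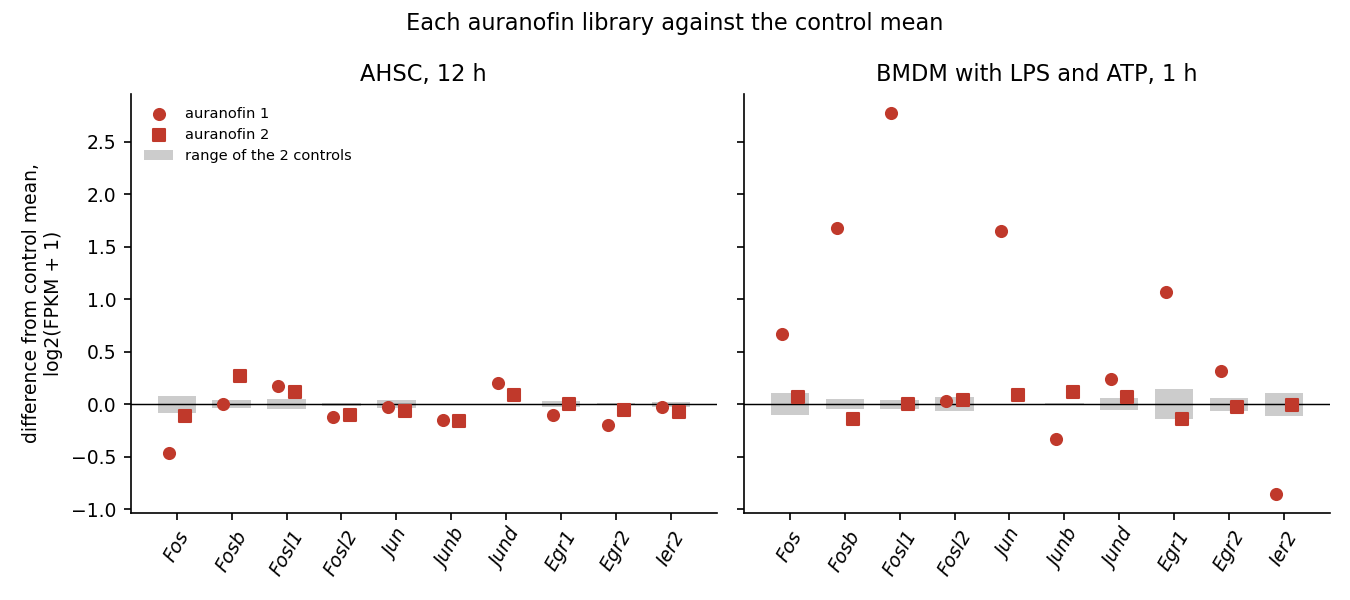
Difference of each auranofin library from the control mean in log2(FPKM + 1), for the 10 genes in AHSC (left) and BMDM (right), with replicate 1 round, replicate 2 square and the range of the 2 controls as a grey bar. All AHSC points lie between -0.46 and 0.27, whereas in BMDM replicate 1 reaches 2.78 for Fosl1 and -0.85 for Ier2 and replicate 2 stays between -0.14 and 0.12.

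In BMDM with LPS and ATP, the AP-1 and EGR genes stood away from the controls in 1 auranofin library and lay near them in the other. Auranofin replicate 1 held more Fosl1, Fosb, Jun, Egr1 and Fos than any other BMDM library, and less Ier2 and Junb, while auranofin replicate 2 lay within 0.14 of the control mean in log2(FPKM + 1) for all 10 genes. None of the 10 genes passed an adjusted p under 0.05 in the fit of both libraries (limma, 1 of 9232 genes did, 0.0108%). At 1.5-fold with an unadjusted p under 0.05 the count was also 0, beside 14 genes (0.152%), and 0 had an unadjusted p under 0.05 without regard to fold, beside 0.531% of all genes. Their median log2 fold change was 0.26, beside 0.09 for all genes tested. This median includes Fosb and Fosl1, whose means reached 1 FPKM only through auranofin replicate 1.

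Fosl1 showed the widest range. It had 0.626 and 0.726 FPKM in the controls, 10.5 FPKM in the first auranofin library and 0.680 FPKM in the second, from about 35, 37, 684 and 44 fragments. The first was 14.5 times the highest of the other 3, and by this difference on the log2(FPKM + 1) scale Fosl1 ranked 14 of 9232 genes. Without the first auranofin library Fosl1 would not have been tested, so this rank is no support of its own. Fitted over both auranofin libraries, the difference was 1.39 on the log2 scale (standard error 0.99, adjusted p = 0.721 from limma). Fosl1 (chr19:5447698-5455938, GRCm38.p6) overlaps the gene Ccdc85b, so fragments could have been divided between them, and Ccdc85b itself had 0.130 to 0.160 FPKM in the 4 BMDM libraries.

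Fosb, whose protein pairs with JUN proteins as FOS does, had 0.486 and 0.587 FPKM in the controls, 3.92 FPKM in the first auranofin library and 0.396 FPKM in the second. The first was the highest and the second the lowest of the 4. Fosb lies at chr7:19302696-19310118 (GRCm38.p6), where no other listed gene overlaps it. Fos had 20.0 and 17.1 FPKM in the controls and 30.0 and 19.5 FPKM with auranofin, again with replicate 1 apart and replicate 2 between the controls. Fosl2 had 10.6 and 11.7 FPKM in the controls and 11.3 and 11.4 FPKM with auranofin, with both auranofin libraries between the controls. Its log2 fold change was 0.032, and -0.069 after quantile normalization.

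Jun had 21.7 and 21.8 FPKM in the controls, 70.3 FPKM in the first auranofin library and 23.2 FPKM in the second. Both auranofin libraries lay above both controls, replicate 2 by a difference of 0.09 from the control mean in log2(FPKM + 1) and replicate 1 by 1.65. The log2 fold change of Jun was 0.87 (standard error 0.56, adjusted p = 0.721 from limma). Jund had 31.8 and 34.5 FPKM in the controls and 39.3 and 34.8 FPKM with auranofin, and was with Jun the other gene without overlap. That made 2 of 10 genes with the auranofin libraries beyond the controls, beside 38.8% of all genes. Junb went the other way in the first library, with 403 and 410 FPKM in the controls and 322 and 441 FPKM with auranofin, and the auranofin libraries lay on either side of the controls.

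Egr1 had 10.3 and 8.30 FPKM in the BMDM controls, 20.5 FPKM in the first auranofin library and 8.30 FPKM in the second. Egr2 was low throughout, at 1.53 and 1.32 FPKM in the controls and 2.02 and 1.38 FPKM with auranofin. Ier2 had 33.1 and 38.7 FPKM in the controls, 19.3 FPKM in the first auranofin library and 35.5 FPKM in the second, the lowest value being that of the library that stood apart. Thus Ier2 and Junb were lower in the library in which Fosl1, Fosb, Jun, Egr1 and Fos were higher.

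Set against all genes, the members were not the only ones to differ in that library. On the log2(FPKM + 1) scale, 3 of the 10 (Fosb, Fosl1 and Jun) were at least 2-fold above each of the other 3 libraries, as were 427 of 9232 genes (4.63%), and 0 of the 10 were at least 2-fold below, as were 188 genes (2.04%). Fosb and Fosl1 had under 1 FPKM in the other 3 libraries and were tested only through auranofin replicate 1. Their place in this count was thus in part fixed by the filter. In each of the other 7 libraries of both cell types, 2 to 11 genes stood above and 2 to 9 below, none of them a member. Without auranofin replicate 2, the comparison of replicate 1 with the controls gave an adjusted p under 0.05 for 9 of the 10 genes (limma, the lone library being assumed to vary like the controls), beside 65.2% of the 9285 genes then tested. Only Fosl2 did not pass. In this comparison Fosl1 had a log2 fold change of 2.78, Fosb 1.68, Jun 1.65, Egr1 1.07 and Fos 0.67. Ier2 fell by 0.85 and Junb by 0.33 on the log2 scale. Here too, Fosb and Fosl1 passed the filter on low values only through auranofin replicate 1. Their place among the genes that passed the test was thus in part fixed by the filter. Without auranofin replicate 1, 8 of the 10 genes passed the filter on low values, none passed the test, and their log2 fold changes ran from -0.14 for Egr1 to 0.12 for Junb. With that library left out the values of Junb, Egr1 and Egr2 changed sign.

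The make-up of the FOS and JUN transcripts differed accordingly. In BMDM, Junb made up 82.5 to 83.1% of the summed FPKM of the 7 FOS and JUN genes in 3 libraries and 66.1% in auranofin replicate 1. Jun made up 4.37 to 4.44% in those 3 libraries and 14.4% in auranofin replicate 1. The FOS genes together had 6.02 to 6.50% against 11.4%, and within the FOS genes Fosl1 had 1.97 to 2.41% against 18.8%. The sums themselves were 488 and 496 FPKM in the controls and 487 and 531 FPKM with auranofin. In AHSC the sums were 161 and 157 FPKM in the controls and 154 and 152 FPKM with auranofin. There the FOS genes had 20.8 to 22.5%, Fosl2 14.8 to 16.1%, and Jun and Junb 28.8 to 29.7% and 27.3 to 29.8%. Jund had 18.6 and 18.9% in the AHSC controls and 22.3 and 20.8% with auranofin. These shares are descriptions of single libraries and carry no test.

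**Figure D3:**
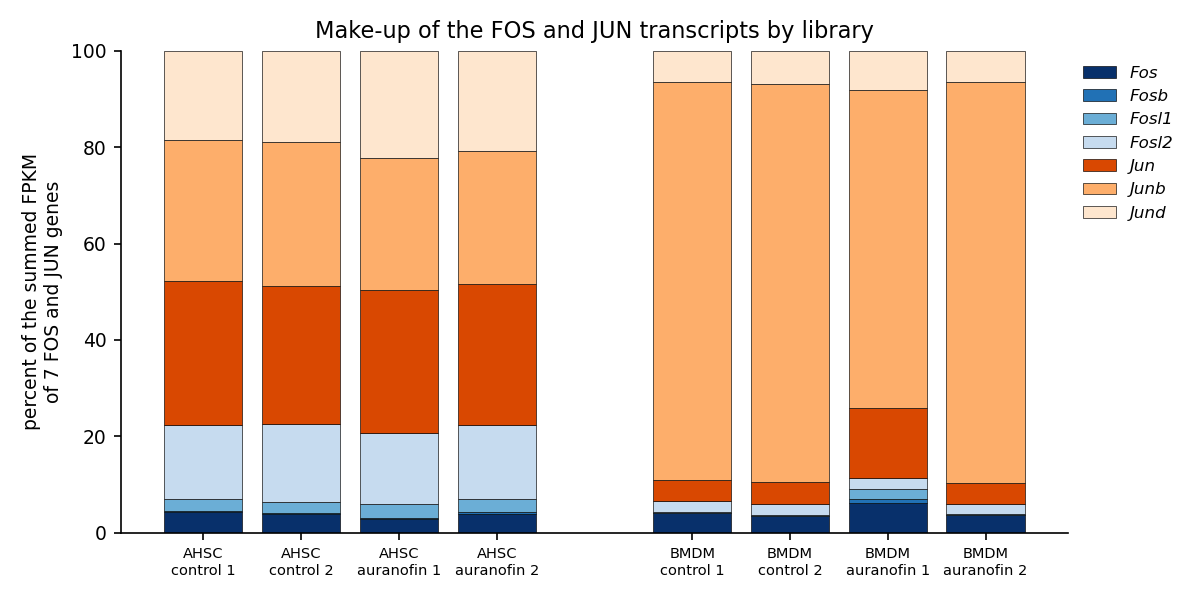
Percent of the summed FPKM of 7 FOS and JUN genes that each gene made up in each of the 8 libraries, FOS genes in blues from the bottom and JUN genes in oranges above. The 4 AHSC bars resemble each other, and in BMDM auranofin replicate 1 the share of Junb is 66.1% where the other 3 bars have 82.5 to 83.1%.

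Genes around these in the same pathways were read from 7 lists. In AHSC, none of the genes of the lists passed 1.5-fold with an unadjusted p under 0.05, and in BMDM none did either. By adjusted p under 0.05, 0 passed in BMDM, and in AHSC the genes that passed were from the list of textbook AP-1 or EGR1 targets and were lower with auranofin. Ccl2 and Plau were among them and are named after their values were seen. Ccl2, the chemokine that draws in monocytes, fell from 198 and 189 FPKM to 139 and 149 FPKM (log2 fold change -0.42, adjusted p = 0.0149 from limma). Plau, which encodes urokinase, fell from 154 and 153 FPKM to 126 and 132 FPKM (adjusted p = 0.0353 from limma). Of the 19 genes on this list, all tested, 15 had a lower mean with auranofin and 4 a higher one, and their median log2 fold change was -0.10 beside 0.0049 for all genes. The part of the stellate, fibroblast, endothelial and Kupffer cell markers in these values was not tested. Of 28 other immediate early genes, 25 were tested in AHSC, 18 of them lower and 7 higher, with a median of -0.05. The medians of the MAP kinases and the factors that switch on immediate early genes were 0.0033 and -0.0064. That of the DUSP, SPRY and SPRED brakes of MAP kinases was -0.09, with 11 of 15 lower. Beside these counts, 5803 of all 12149 genes tested in AHSC were lower.

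In BMDM the 7 lists differed in their medians between the auranofin libraries. The 25 tested of the other immediate early genes had a median difference from the control mean of 0.56 in auranofin replicate 1 and of 0.03 in replicate 2, beside 0.18 and 0.0049 for all genes tested. Of these 25, 8 stood at least 2-fold above each of the other 3 libraries in replicate 1, as did 4.63% of all genes tested. Klf10, Bhlhe40, Zfp36l1, Plk3 and Phlda1, named after their values were seen, were examples. Klf10, a TGF-β early response factor, had 1.44 and 1.32 FPKM in the controls and 10.5 and 1.15 FPKM with auranofin. Phlda1 had 7.19 and 6.65 FPKM against 33.0 and 7.72 FPKM. Not all immediate early genes were higher in that library. Zfp36, which encodes the mRNA-destabilizing protein tristetraprolin, had 780 and 794 FPKM in the controls and 536 and 855 FPKM with auranofin, and Klf6 had 397 and 384 FPKM against 338 and 375 FPKM.

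Partners of FOS and JUN proteins from the bZIP family also went both ways in BMDM. Atf3, a stress-induced repressor, had 336 and 333 FPKM in the controls and 690 and 352 FPKM with auranofin. Batf, whose protein pairs with JUN proteins, had 93.5 and 91.7 FPKM against 37.4 and 99.8 FPKM. Maf had 64.5 and 66.8 FPKM against 21.1 and 62.8 FPKM. These genes, too, are named after their values were seen. Over the 9 genes of this list the median difference was -0.02 in auranofin replicate 1 and 0.03 in replicate 2. Of the brakes on MAP kinases, Dusp6, which acts on ERK, had 2.94 and 2.71 FPKM in the controls and 9.99 and 2.86 FPKM with auranofin. Dusp1 had 334 and 340 FPKM against 367 and 373 FPKM, and Dusp2 had 115 and 127 FPKM against 53.7 and 133 FPKM. The list's median difference was 0.30 in the first auranofin library and 0.04 in the second. The MAP kinases and kinases above them had 0.24 and -0.01, and the factors that switch on immediate early genes 0.38 and -0.05. The textbook targets had -0.03 and 0.05. Among them Vegfa had 1.89 and 1.94 FPKM in the controls and 8.50 and 1.92 FPKM with auranofin, whereas Mmp13, a collagenase, had 671 and 661 FPKM against 278 and 659 FPKM. The list of other EGR and IER genes and their NAB corepressors had 4 of 7 genes tested in BMDM and 5 in AHSC, with none past the test. Its median difference in BMDM was -0.013 in the first auranofin library and 0.14 in the second, and Egr3 and Egr4 stayed under 1 FPKM in all 8 libraries.

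**Figure D4:**
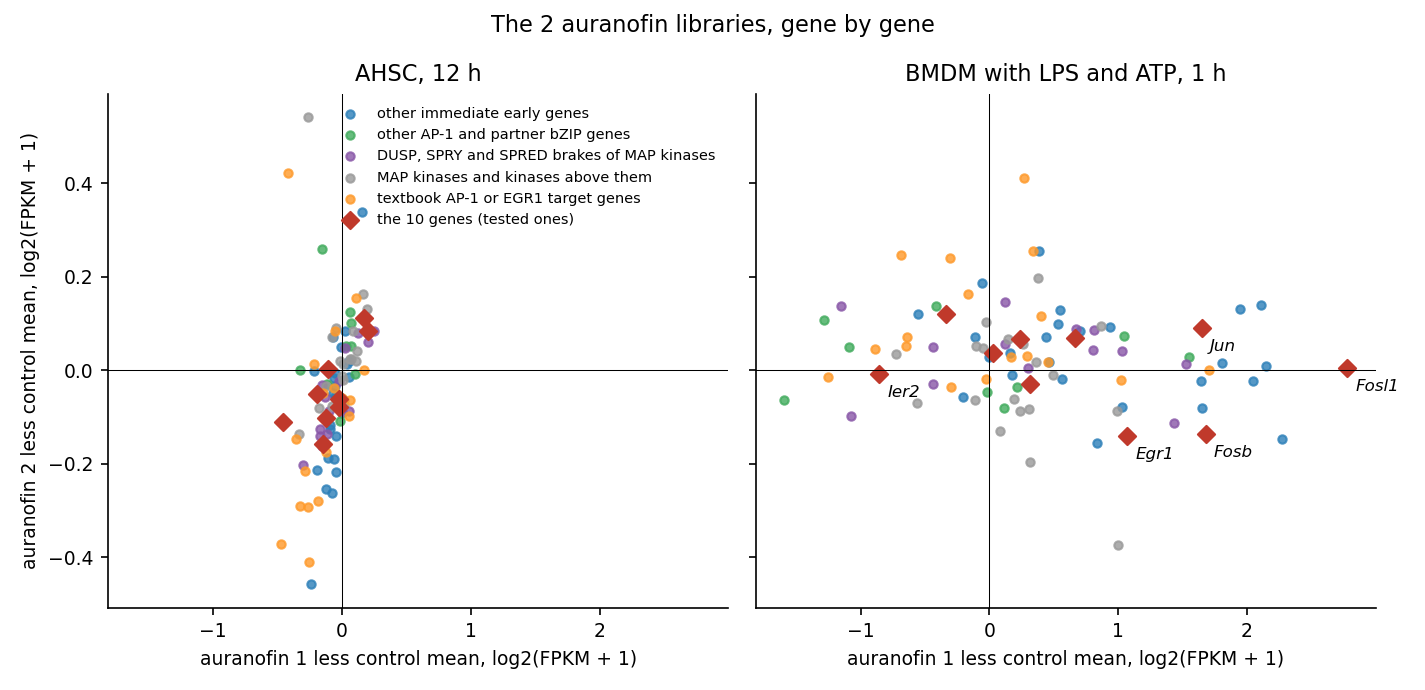
Difference from the control mean in log2(FPKM + 1) in auranofin replicate 1 (horizontal) and auranofin replicate 2 (vertical, on a scale of its own) for the tested members (red diamonds) and the genes of 5 pathway lists (coloured points), in AHSC (left) and BMDM (right). In BMDM the points spread along the horizontal axis, up to 2.78 for Fosl1, and replicate 2 keeps the members between -0.14 and 0.12.

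The genes whose pattern over the 8 libraries was nearest to the median of the 10 genes were Hnrnpl, Cln6, Srsf6, Ptbp1 and Mex3c, out of 3698 genes whose mean reached 10 FPKM in both tables. Their Euclidean distances, over differences from the control mean in log2(FPKM + 1), ran from 0.06 for Hnrnpl to 0.09 for Mex3c. The median of the 10 genes was -0.07 and -0.06 in the AHSC auranofin libraries and 0.49 and 0.02 in the BMDM auranofin libraries. Hnrnpl had -0.02 and -0.05 in the former and 0.52 and 0.05 in the latter. The likeness rests on BMDM auranofin replicate 1, which gives the one value far from 0. In that library the 10 genes themselves ran from -0.85 for Ier2 to 2.78 for Fosl1. Nearness to their median is therefore not likeness to each of them.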

How the data were processed

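RNA was isolated with Trizol and libraries were made by the authors with a TruSeq stranded mRNA kit. The submitters' processing notes name CASAVA, FastQC 0.11.7, Trimmomatic 0.38, HISAT2 2.1.0, StringTie 1.3.4d and the build mm10. Whether the quantification used strand is not given in the sources used here. The values are FPKM, deposited by the authors in 1 table for AHSC (18645 genes) and 1 for BMDM (17408 genes), and normalized separately. Depth was estimated from values under 0.2 FPKM, which lie on steps of 1 fragment, with GENCODE M21 transcript lengths, and covers counting error only. Fragments given for a gene rest on the length of its longest transcript.

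Each table was fitted alone. Genes whose mean reached 1 FPKM were kept (12149 in AHSC and 9232 in BMDM), and limma (lmFit, eBayes with trend, two-sided) on log2(FPKM + 1) compared 2 auranofin with 2 control libraries, with Benjamini-Hochberg adjustment over all genes tested. The fit was tested on simulated data. Called means an adjusted p under 0.05 or, separately, at least 1.5-fold with an unadjusted p under 0.05. Alternatives were a pseudocount of 0.1, no filter, a mean of at least 5 FPKM, quantile normalization, median centring, eBayes without trend, no moderation, a replicate block, 2-fold and each library left out. The 10 genes and the lists were chosen with earlier results of these data known. Named were all 10 genes, up to 3 genes each way of a list past 1.5-fold and an unadjusted p under 0.05 (there were none), and the 5 genes nearest in pattern. Some genes of the lists are not reported here. Positions and promoters are from RefSeq on GRCm38.p6, the assembly of mm10. Fits ran in limma 3.58.1 (R 4.3.3), and other steps in Python 3.11.15 with matplotlib 3.10.9, scipy 1.17.1, pandas 2.3.3 and numpy 2.4.6.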

Additional observations from a re-analysis of the deposited data

Results flagged for a closer look

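In 3 of the 10 genes both auranofin libraries of AHSC lay to one side of the control mean and both auranofin libraries of BMDM to the other. The share of all genes with this pattern was not counted, so the count is not a result about the 10 genes. Of all genes tested, 5803 of 12149 had a log2 fold change below 0 in AHSC and 6102 of 9232 one above 0 in BMDM. This contrast of cell types was not tested, because the tables were normalized separately and differ in dose, time and stimulus. Fos had a log2 fold change of -0.29 in AHSC and 0.37 in BMDM, Fosl2 one of -0.11 and 0.032, and Jun one of -0.044 and 0.87. None of these 6 values passed an adjusted p under 0.05 from limma. The value of Fos in BMDM was 0.07 without auranofin replicate 1, that of Jun 0.09, and that of Fosl2 changed sign under other scalings.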

How the results depend on the processing

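Each BMDM result with auranofin in it rests on a pair of libraries that differ from each other, and 2 libraries a group limit every test here. The number of the 10 genes with an adjusted p under 0.05 in BMDM was 0 in the limma fit of all 4 libraries and 0 to 9 when 1 library was left out, 9 being the value without auranofin replicate 2. At 1.5-fold with an unadjusted p under 0.05 it was 0 to 6, again with the higher count without auranofin replicate 2. No other alternative moved these counts, and none moved them in AHSC. Fits with 1 library in a group take its spread from the others, so counts from such fits carry no measure of spread within that group. Without auranofin replicate 2, the counts over all BMDM genes rose as well, as given below, so the higher counts are not particular to the 10 genes. Fosb and Fosl1 are in both of these higher counts and passed the filter on low values only through auranofin replicate 1. Values that changed sign were those of Egr1 in AHSC without auranofin replicate 1 (0.0028; -0.11 to 0.0028 over the left-out libraries) and, in BMDM, those of Fosl2 with quantile normalization (-0.069), median centring (-0.060) and without control replicate 1 (-0.033; -0.033 to 0.097). Without auranofin replicate 1, Junb (0.12; -0.33 to 0.12), Egr1 (-0.14; -0.14 to 1.07) and Egr2 (-0.030; -0.030 to 0.32) changed sign too. The cause was not tested. Quantile normalization brought the median of all BMDM genes from 0.09 to 0.00082. Of the log2 fold changes of the genes under the settings that kept all libraries, 71 of 71 in AHSC and 75 of 77 in BMDM kept their direction and their side of the threshold.

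Over all genes, the AHSC count with an adjusted p under 0.05 of 283 was 49 without the filter, 129 without trend, 0 without moderation and 179 to 517 with a library left out, and the 1.5-fold count of 70 was 124 with a pseudocount of 0.1 and 107 to 139 with a library left out. In BMDM, the 1.5-fold count of 14 was 27 with a pseudocount of 0.1, 22 without the filter, 8 with a mean of at least 5 FPKM, 7 without moderation, 42 with the replicate block, 31 without auranofin replicate 1, 27 without control replicate 2 and 2146 without auranofin replicate 2. The BMDM count with an adjusted p under 0.05 of 1 was 0 without the filter, with quantile normalization or without moderation, 2 without trend, 3 without control replicate 2, 15 without auranofin replicate 1 and 6051 without auranofin replicate 2. The sources used here do not say what the replicate numbers mark, and deviations of same-numbered libraries had a correlation of 0.11 in AHSC and -0.06 in BMDM. With the replicate block, the count of the 10 genes with an adjusted p under 0.05 stayed at 0 in both cell types.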
